A study of Mus musculus with 59 samples.

Results

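The insulin, IGF1 and FoxO pathway was described through 10 genes, taken by symbol from the 47643 symbols measured: Igf1, Igfbp5, Igf1r, Insr, Irs1, Irs2, Foxo1, Foxo3, Foxo4 and Eif4ebp1. Their mRNA levels were read in 59 RNA-seq libraries of mouse muscle as TPM, a transcript level that is corrected for transcript length and sums to the same total in every library. All mice were female NCI Ath/nude animals of 4 months, an athymic strain that lacks T cells, and all carried patient-derived pediatric melanoma cells in the flank, so that there was no tumor-free group. One xenograft caused cachexia, the loss of muscle and body mass that accompanies cancer, and the other did not. Each condition rested on a single xenograft, and cachexia therefore cannot be told apart from other properties of that tumor. In the diaphragm, cachectic mice were given mock (n = 10) or rFibcd1 (n = 10) injections, and so were non-cachectic mice (mock n = 9, rFibcd1 n = 10); rFibcd1 is the recombinant form of Fibcd1, a protein with a fibrinogen C domain. The tibialis anterior (TA), a fast limb muscle, and the soleus (SOL), a slow one, were profiled in 5 cachectic and 5 non-cachectic mice each, and their labels name no rFibcd1 or mock treatment.

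IGF1 and insulin bind the receptor tyrosine kinases IGF1R and INSR, which phosphorylate the adaptors IRS1 and IRS2 and thereby switch on PI3K and AKT. AKT phosphorylates the FoxO transcription factors and keeps them out of the nucleus, where they otherwise drive genes of the ubiquitin-proteasome system and autophagy. AKT also activates mTORC1, which phosphorylates the translational repressor 4E-BP1, encoded by Eif4ebp1. In skeletal muscle the pathway is known for raising protein synthesis and for restraining the protein breakdown of atrophy. These controls act largely through phosphorylation, which mRNA levels do not report.

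Some features of the libraries bear on all values. The number of genes above 0 TPM ranged from 17950 to 19456 in the diaphragm, 16436 to 17673 in TA and 17514 to 18191 in SOL. Slow myofiber markers summed to a median of 17428 TPM in non-cachectic SOL and 7.86 TPM in non-cachectic TA, as the labels of a slow and a fast muscle require. The 4 melanocyte markers summed to at most 0.41 TPM in any library. Libraries fell into a high and a low state by the level of the pseudogene Pcna-ps2, above or below 2 TPM. In TA and SOL the 5 cachectic libraries were in the high state and the 5 non-cachectic libraries in the low one, so state and tumor cannot be told apart there. In the diaphragm the high state held 9 of 10 cachectic and 3 of 9 non-cachectic mock libraries, and 8 of 10 cachectic and 6 of 10 non-cachectic rFibcd1 libraries. With the groups as terms of the fit, 5 of the 10 genes differed between the states of the diaphragm (Foxo1, Igf1, Igfbp5, Insr and Irs1, all higher in the high state, by 0.22 to 0.64 on the log2(TPM + 1) scale), against 61% of all genes tested. Finally, TPM are shares of a library, and the median gene moved with the tumor: over all genes tested, the cachectic mock diaphragm differed by a median of 0.20 on the log2 scale, TA by 0.41 and SOL by 0.09. Each difference below is therefore also given after median-ratio scaling wherever that scaling ended or reversed its call.

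Igfbp5 had the highest level of the 10 genes in the non-cachectic mock diaphragm, with 337 ± 74.3 TPM (SD, n = 9). It encodes IGFBP5, a secreted protein that binds IGFs and modulates their access to the receptor. Foxo4 and Eif4ebp1 followed with 86.0 ± 4.88 and 84.2 ± 13.2 TPM, and these levels overlapped. Insr reached 26.9 ± 2.40 TPM. Foxo3 (15.6 ± 1.56), Irs2 (14.7 ± 6.94) and Irs1 (14.6 ± 3.29) lay close together, within their spread. The lowest levels were those of Foxo1 (7.74 ± 1.09), Igf1 (7.59 ± 3.61) and Igf1r (5.44 ± 0.634), and all 3 overlapped. Among the FoxO factors the order Foxo4, Foxo3, Foxo1 held for the mean level in all 8 groups.

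**Figure D1:**
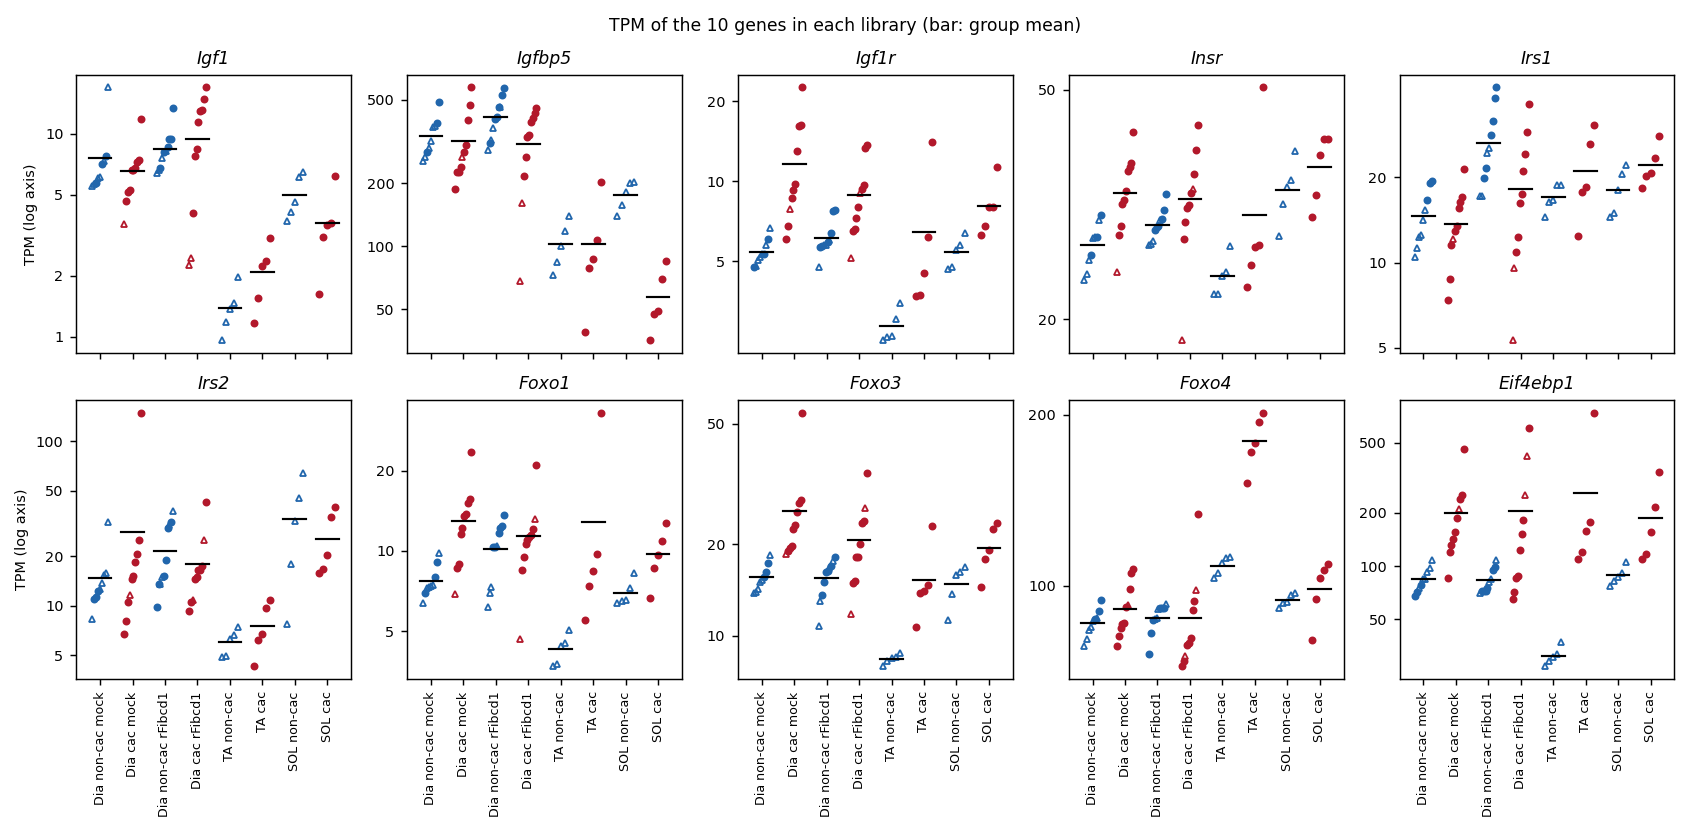
Level of each gene in every library, in TPM on a log axis; blue marks non-cachectic and red cachectic groups, filled circles libraries of the high state and open triangles those of the low state, and bars the group means. Foxo3 in the mock diaphragm and Eif4ebp1 in TA and SOL show no overlap between cachectic and non-cachectic libraries, and Igfbp5 shows none in SOL, where the cachectic libraries are the lower ones.

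The non-cachectic muscles were compared in pairs, and the counts of these genes called lay near the shares of all genes for TA against either other muscle. Between diaphragm and TA, 8 of the 10 genes were called at an adjusted p below 0.05, against 72.5% of all genes tested. Higher in the diaphragm were Igf1, the growth factor itself (7.59 against 1.39 ± 0.380 TPM; log2 fold change 1.78 ± 0.21, SE), Igfbp5 (337 against 103 ± 26.6; 1.71 ± 0.26), Eif4ebp1 (84.2 against 31.0 ± 3.78; 1.41 ± 0.32) and Irs2 (14.7 against 6.03 ± 1.10; 1.08 ± 0.44). Foxo3 (0.82 ± 0.16), Igf1r (0.74 ± 0.22) and Foxo1 (0.72 ± 0.23) were also higher. Foxo4 alone was lower in the diaphragm, at 86.0 against 108 ± 4.02 TPM (-0.33 ± 0.07). Irs1 (14.6 against 17.1 ± 1.81 TPM) did not differ with libraries taken as independent (-0.23 ± 0.18, adjusted p = 0.252), and was called lower in the diaphragm when the number in the column name was a block (-0.32, adjusted p = 0.0491).

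Between TA and SOL, 9 of the 10 genes were called, against 69.5% of all genes. Lower in TA were Irs2 (-2.00 ± 0.50), Eif4ebp1 (-1.49 ± 0.36), Igf1 (-1.32 ± 0.24), Igfbp5 (-0.79 ± 0.29), Foxo3 (-0.74 ± 0.19), Igf1r (-0.74 ± 0.25), Foxo1 (-0.59 ± 0.26) and Insr (-0.47 ± 0.14), and Foxo4 was higher (0.20 ± 0.08). Irs2, an adaptor, spread widely in non-cachectic SOL, with 7.70, 17.9, 32.8, 45.4 and 64.2 TPM, whereas the 5 TA libraries lay between 4.90 and 7.43 TPM. Between diaphragm and SOL only Igfbp5 was called, at 337 against 176 ± 26.9 TPM (0.91 ± 0.26, adjusted p = 0.005), against 38.8% of all genes. Insr was called lower in the diaphragm than in SOL without non-cachectic diaphragm library 66 (-0.33) or 67 (-0.32) or SOL library 61 (-0.37), and Irs2 without SOL library 61 (-1.34, adjusted p = 0.0175). After median-ratio scaling Igf1 was called higher (0.50, adjusted p = 0.0306) and Insr lower (-0.26, adjusted p = 0.0083) in the diaphragm beside Igfbp5 (0.96). With the number in the column name as a block 5 of 10 were called, against 49.9% of all genes, namely Igfbp5, Igf1 (0.49), Insr (-0.33), Irs1 (-0.38) and Irs2 (-0.88).

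Markers of other cell types differed along with these genes. Fibroblast markers were called higher in the diaphragm than in TA in 5 of 5 cases, with sums of 700.4 to 1160 TPM (median 905) against 146 to 278 TPM (median 211), and 547 to 754 TPM (median 658) in SOL. Macrophage markers were called higher in 6 of 6 cases, with 73.4 to 169 against 9.79 to 22.4 TPM, and 43.0 to 55.8 TPM in SOL. Adipocyte markers were called higher in 4 of 5 cases, with 27.5 to 331 against 5.43 to 14.0 TPM, and 66.8 to 215 TPM in SOL. The 4 liver markers were all called higher, with a median sum of 17.2 TPM and up to 7460 TPM in a single diaphragm library against at most 0.597 TPM in TA, and up to 59.5 TPM in SOL. Endothelial markers were called higher in 4 of 4 cases, with 153 to 205 against 81.2 to 111 TPM, and 141 to 181 TPM in SOL. Satellite cell markers were called higher in 3 of 3 cases, with 6.34 to 10.1 against 2.06 to 3.54 TPM, and 11.0 to 14.9 TPM in SOL. No marker of these 6 lists was at 0 in all libraries of any of these groups, and their part in the muscle differences was not tested.

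The median gene was 0.44 higher in the diaphragm than in TA and 0.47 lower in TA than in SOL. All genes called were split 64% higher and 8.52% lower in the diaphragm against TA, and 34.6% and 36.4% after median-ratio scaling. For TA against SOL the split was 5.63% higher and 63.9% lower, and 28.2% and 25.1% after scaling. After scaling, the diaphragm was still higher than TA in Igf1 (1.42), Igfbp5 (1.13) and Eif4ebp1 (0.84) and lower in Foxo4 (-0.91), the calls of Foxo1, Foxo3, Igf1r and Irs2 ended, and Irs1 (-0.79) and Insr (-0.39) were called lower. TA remained below SOL in Irs2 (-1.44), Igf1 (-0.92) and Eif4ebp1 (-0.87) and above it in Foxo4 (0.82), whereas Foxo1, Foxo3, Igf1r, Igfbp5 and Insr lost their calls, Insr with a change of direction (0.14), and Irs1 was called higher (0.54). With libraries left out in turn, the TA against SOL calls of Foxo1 and Foxo4 ended most often, with 9 and 5 of the 10 libraries. With the number in the column name as a block and all libraries kept, both stayed called (adjusted p = 0.00759 and 0.0115 by limma). The libraries whose omission ended the calls were all but number 65 of TA for Foxo1 (-0.54 to -0.62) and numbers 61, 64 and 65 of TA and 61 and 62 of SOL for Foxo4 (0.19 to 0.20). Igfbp5 lost its call there without TA library 63 (-0.68, adjusted p = 0.053). Irs2 lost its call between diaphragm and TA without diaphragm library 63 (0.94, adjusted p = 0.0563) or TA library 61 (1.03, adjusted p = 0.0577) or 64 (1.02, adjusted p = 0.0579).

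The promoters of the genes called in more than 1 comparison of tumors are shown for Igf1r, Foxo1 and Foxo3, together with that of Igfbp5, the only one of the 10 called lower between tumors with TPM as deposited and all libraries. Each sequence holds the 250 bases before the transcription start in RefSeq on GRCm38.p6, read 5′ to 3′ on the strand of the gene. Capitals mark the core of the FoxO binding motif, TGTTT or AAACA.
Igf1r, chr7:67952007-67952256, plus strand: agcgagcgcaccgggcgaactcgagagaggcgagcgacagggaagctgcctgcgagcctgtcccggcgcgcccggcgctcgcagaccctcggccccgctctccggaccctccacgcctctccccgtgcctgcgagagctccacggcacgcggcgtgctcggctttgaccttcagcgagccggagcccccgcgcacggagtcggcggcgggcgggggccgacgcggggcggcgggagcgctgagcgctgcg
Foxo1, chr3:52268087-52268336, plus strand: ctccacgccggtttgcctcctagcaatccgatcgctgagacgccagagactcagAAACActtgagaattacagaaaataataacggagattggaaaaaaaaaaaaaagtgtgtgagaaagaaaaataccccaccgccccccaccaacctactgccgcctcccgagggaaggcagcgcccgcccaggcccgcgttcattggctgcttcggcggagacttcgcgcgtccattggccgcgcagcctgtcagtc
Foxo3, chr10:42276696-42276945, minus strand: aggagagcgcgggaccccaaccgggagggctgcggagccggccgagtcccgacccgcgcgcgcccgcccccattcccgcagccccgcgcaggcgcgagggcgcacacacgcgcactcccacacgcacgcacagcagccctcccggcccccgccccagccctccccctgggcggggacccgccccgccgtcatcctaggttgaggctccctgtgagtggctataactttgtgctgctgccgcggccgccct
Igfbp5, chr1:72874866-72875115, minus strand: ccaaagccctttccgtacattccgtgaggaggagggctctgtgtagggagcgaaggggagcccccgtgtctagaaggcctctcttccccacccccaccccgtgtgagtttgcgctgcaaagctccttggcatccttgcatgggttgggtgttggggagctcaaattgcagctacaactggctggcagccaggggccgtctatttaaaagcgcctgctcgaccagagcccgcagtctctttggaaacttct

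Promoter entries were found for 7 of the 10 genes; Foxo4, Insr and Eif4ebp1 had none. The longer FoxO motif TGTTTAC, searched on both strands as TGTTTAC and GTAAACA, was in 0 of the 7 windows, and in 3.17% of the 32851 promoter windows of that length. The core, which the longer motif contains, occurred once in Foxo1, Igf1 and Irs2 and at 2 places in Irs1, and had no match in Foxo3, Igf1r and Igfbp5; 46.4% of all promoters held it. These are matches of letters in a window and were not set against binding data.

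Against this baseline, cachectic melanoma was compared with non-cachectic melanoma in each muscle. In the mock diaphragm 5 of the 10 genes were called, all higher (Igf1r, Insr, Foxo1, Foxo3 and Eif4ebp1), against 33.5% of all genes. In TA 5 of 10 were called, all higher (Igf1r, Foxo1, Foxo3, Foxo4 and Eif4ebp1), against 60.2% of all genes. In SOL 3 of 10 were called, with Igf1r and Eif4ebp1 higher and Igfbp5 lower, against 25.1% of all genes. With 10 genes these counts are a description, and nothing particular to them is read from it. After median-ratio scaling 1 of 10 was called in the mock diaphragm, 2 in TA and 3 in SOL, against 15.8%, 40.3% and 28% of all genes. All genes called were split 30.9% higher and 2.67% lower in the mock diaphragm (7.39% and 8.41% after median-ratio scaling), 56.4% and 3.78% in TA (18.4% and 21.9%), and 17.5% and 7.54% in SOL (15.2% and 12.8%). In bulk muscle, fewer cells of a type and less RNA per cell cannot be told apart in any of these differences.

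**Figure D2:**
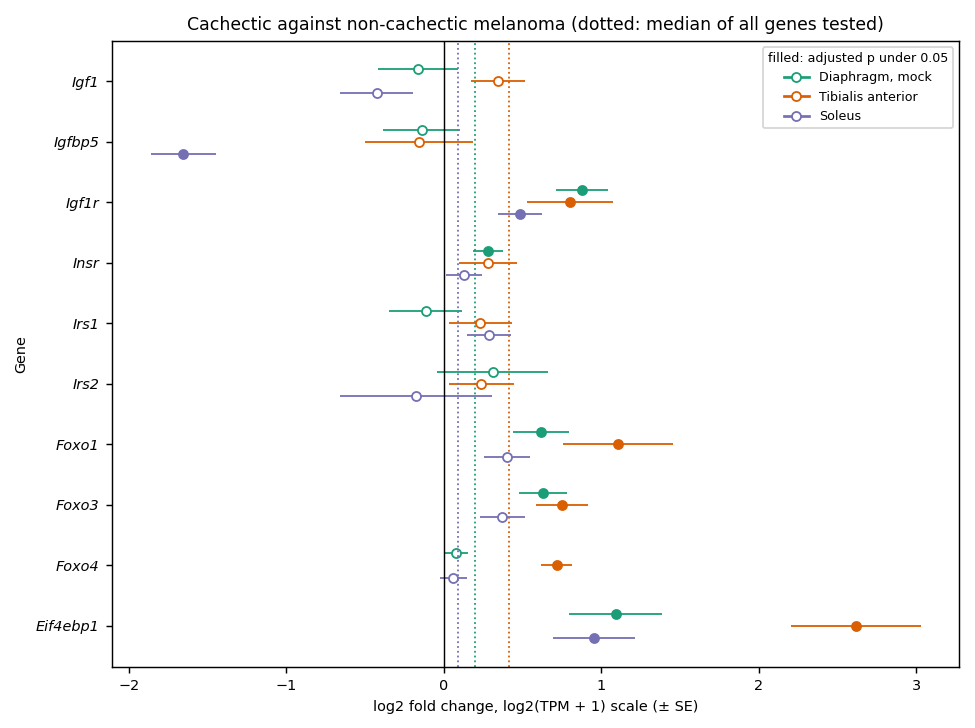
Log2 fold change of cachectic against non-cachectic libraries with its SE for each gene in the mock diaphragm, TA and SOL, filled where the adjusted p was below 0.05; dotted lines give the median of all genes tested. Igf1r and Eif4ebp1 are filled in all 3 muscles, and Igfbp5 in SOL lies at -1.66.

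The ligand did not pass the test in any muscle. Igf1 ranged from 5.51 through a median of 6.12 to 17.0 TPM in the non-cachectic mock diaphragm and from 3.59 through 6.63 to 11.8 TPM in the cachectic one (-0.16 ± 0.25, adjusted p = 0.624). In TA its level was low, with 0.958, 1.18, 1.36, 1.47 and 1.97 TPM in non-cachectic and 1.17, 1.55, 2.24, 2.36 and 3.05 TPM in cachectic libraries (0.34 ± 0.17, adjusted p = 0.0994). The groups overlapped in both muscles. In SOL the cachectic libraries were 1.63, 3.09, 3.55, 3.65 and 6.21 TPM and the non-cachectic ones 3.72, 4.11, 4.62, 6.11 and 6.48 TPM (-0.43 ± 0.23, adjusted p = 0.197). Single libraries decided these outcomes in the limb muscles: without cachectic library 7 Igf1 was called higher in TA (0.46, adjusted p = 0.0306), and without cachectic library 9 it was called lower in SOL (-0.61, adjusted p = 0.0493).

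With TPM as deposited, Igfbp5 behaved differently in SOL from both other muscles. Non-cachectic SOL held 140, 158, 181, 200 and 202 TPM, and cachectic SOL 35.6, 47.5, 49.2, 69.5 and 84.7 TPM. Every cachectic library was below every non-cachectic one, and Igfbp5 was lower in cachectic SOL (-1.66 ± 0.21, adjusted p = 0.000367), a call kept with each library left out (-1.81 to -1.50). In TA it held 72.9, 83.9, 100.2, 118 and 139 TPM in non-cachectic and 38.9, 78.8, 86.9, 107 and 203 TPM in cachectic libraries, with the groups overlapping (-0.16 ± 0.34, adjusted p = 0.691). After median-ratio scaling the TA difference was -0.65 (adjusted p = 0.255). In the mock diaphragm the non-cachectic range of 254 to 486 TPM (median 317) lay within the cachectic range of 187 to 574 TPM (median 274; -0.14 ± 0.24, adjusted p = 0.658). The tumor effect on Igfbp5 differed by 1.51 ± 0.36 between diaphragm and SOL (adjusted p = 0.0169) and by 1.50 ± 0.41 between TA and SOL (adjusted p = 0.0124); after median-ratio scaling the first stayed called (1.36, adjusted p = 0.0442) and the second did not (1.09, adjusted p = 0.117). Fibroblast markers moved with it: 3 of 5 were called lower in SOL, their sum being 547 to 754 TPM (median 658) in non-cachectic and 208 to 611 TPM (median 271) in cachectic libraries, none of the 5 at 0. Their part in the Igfbp5 result was not tested.

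Igf1r, the IGF1 receptor, was called higher in all 3 muscles with TPM as deposited, in TA and SOL not under every alternative. In the mock diaphragm it ranged from 4.75 through a median of 5.31 to 6.70 TPM in non-cachectic and from 6.09 through 9.50 to 22.6 TPM in cachectic mice, and 9 of 10 cachectic libraries exceeded every non-cachectic one. The difference was 0.88 ± 0.17 (adjusted p = 0.00022), and 0.77 to 0.96 with any one library left out. It was the only gene of the 10 that stayed called in the mock diaphragm after median-ratio scaling (0.68, adjusted p = 0.00238), in the high-state libraries alone (0.93, adjusted p = 0.0435) and with library state as a term (0.76, adjusted p = 0.00408).

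In TA, Igf1r held 2.52, 2.59, 2.62, 3.03 and 3.47 TPM in non-cachectic and 3.69, 3.75, 4.52, 6.15 and 14.1 TPM in cachectic libraries. The groups did not overlap, and the cachectic library of 14.1 TPM, number 8, stood apart. The difference of 0.80 ± 0.27 (adjusted p = 0.0262) lost its call after median-ratio scaling (0.39, adjusted p = 0.0882) and without cachectic library 9 (adjusted p = 0.0507) or non-cachectic library 61 (0.0528), 62 (0.0539) or 63 (0.0541); without library 8 it was 0.51 and still called. Without a filter on low values the call also ended (adjusted p = 0.0571). In SOL the levels were 4.67, 4.75, 5.50, 5.75 and 6.41 TPM against 6.28, 6.77, 8.01, 8.02 and 11.3 TPM, with 1 cachectic library inside the non-cachectic range. The difference was 0.48 ± 0.14 (adjusted p = 0.028) and was not called without non-cachectic library 61 (adjusted p = 0.0679), 62 (0.072) or 64 (0.0533), without a filter on low values (0.0506) or by Dunn tests (0.0641).

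Insr, the insulin receptor, was called in the diaphragm only. It ranged from 23.4 through 27.7 to 30.3 TPM in non-cachectic and from 24.1 through 32.8 to 42.2 TPM in cachectic mock mice, and 7 of 10 cachectic libraries exceeded every non-cachectic one. The difference of 0.28 ± 0.10 (adjusted p = 0.0269) was near the shift of the median gene and ended after median-ratio scaling (0.06, adjusted p = 0.688), with library state as a term (0.15, adjusted p = 0.316) and without cachectic library 20 (0.24, adjusted p = 0.0595) or non-cachectic library 61 (0.26, adjusted p = 0.0544) or 62 (0.26, adjusted p = 0.0542). The call of Insr also ended in the high-state libraries alone. In TA, 4 of the 5 cachectic libraries held 22.8 to 26.9 TPM and library 8 held 50.5 TPM, against 22.1 to 26.8 TPM in non-cachectic mice (0.28 ± 0.19, adjusted p = 0.191; -0.20 after scaling). In SOL the ranges were 30.1 to 41.1 and 27.8 to 39.2 TPM (0.13 ± 0.11, adjusted p = 0.448). The mean ratio of Igf1r to Insr within a library was 0.204 ± 0.0294 (SD, n = 9) in the non-cachectic and 0.348 ± 0.129 (n = 10) in the cachectic mock diaphragm. It was 0.120 ± 0.0135 and 0.199 ± 0.0604 in TA, and 0.162 ± 0.0175 and 0.219 ± 0.0319 in SOL (n = 5 each). A ratio within a library does not depend on how the library was scaled; the 2 ranges overlapped in the diaphragm and did not in TA or SOL.

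Neither adaptor passed the test in any muscle. Irs1 ranged from 10.5 through 14.1 to 19.5 TPM in the non-cachectic and from 7.35 through 13.2 to 21.4 TPM in the cachectic mock diaphragm (-0.12 ± 0.23, adjusted p = 0.706). It held 14.5 to 18.8 against 12.4 to 30.6 TPM in TA (0.23 ± 0.20, adjusted p = 0.32) and 14.5 to 22.1 against 18.3 to 28.1 TPM in SOL (0.29 ± 0.14, adjusted p = 0.156). The groups overlapped each time. Irs2 was the most variable of the 10 genes in the cachectic mock diaphragm, from 6.73 through 14.9 to 149 TPM, the next highest library holding 25.1 TPM. Its difference from the non-cachectic range of 8.35 to 32.2 TPM was 0.31 ± 0.35 (adjusted p = 0.497), and -0.03 without cachectic library 20, which held the 149 TPM. The intervals implied by these SE leave room for changes of either sign, and the missed threshold does not show equal levels.

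Of the FoxO factors, Foxo1 and Foxo3 were called in the diaphragm and TA, and Foxo4 in TA alone. Foxo3 ranged from 13.9 through 15.3 to 18.4 TPM in the non-cachectic and from 18.6 through 22.8 to 54.4 TPM in the cachectic mock diaphragm, so that all 10 cachectic libraries exceeded all 9 non-cachectic ones (0.63 ± 0.15, adjusted p = 0.0022). In TA it held 7.93, 8.23, 8.43, 8.52 and 8.77 TPM against 10.6, 13.8, 14.0, 14.7 and 23.0 TPM, again without overlap (0.75 ± 0.16, adjusted p = 0.00438). In SOL 4 of 5 cachectic libraries (14.5, 17.9, 19.1, 22.5 and 23.6 TPM) exceeded the non-cachectic ones (11.3 to 16.9 TPM), and the test was missed (0.37 ± 0.14, adjusted p = 0.0781) except without cachectic library 6 (0.47, adjusted p = 0.0208). After median-ratio scaling Foxo3 stayed called in TA (0.29, adjusted p = 0.00763) and not in the diaphragm (0.41, adjusted p = 0.0646), where the call also ended in the high-state libraries alone (0.59, adjusted p = 0.103).

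Foxo1 ranged from 6.37 through 7.38 to 9.83 TPM in the non-cachectic and from 6.90 through 12.9 to 23.5 TPM in the cachectic mock diaphragm, with 7 of 10 cachectic libraries above the non-cachectic range (0.62 ± 0.18, adjusted p = 0.00799). This call ended after median-ratio scaling (0.41, adjusted p = 0.0711), with library state as a term (0.37, adjusted p = 0.151) and in the high-state libraries alone (0.65, adjusted p = 0.0645). In TA it held 3.71, 3.77, 4.42, 4.53 and 5.07 TPM against 5.49, 7.41, 8.42, 9.75 and 33.0 TPM. The groups did not overlap, and the difference was 1.10 ± 0.35 (adjusted p = 0.0196), 0.71 and still called without library 8, the one of 33.0 TPM, and 0.66 after scaling, where the call was lost (adjusted p = 0.0511). In SOL the levels were 6.37 to 8.24 TPM against 6.66 to 12.7 TPM (0.40 ± 0.14, adjusted p = 0.0621), with a call only when cachectic library 6 was left out (0.52, adjusted p = 0.00905).

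Foxo4 had the narrowest spread on the log2 scale in every group but non-cachectic TA, and was called in TA only. Non-cachectic TA held 103, 105, 109.5, 112 and 112 TPM, and cachectic TA 152, 172, 178, 194 and 202 TPM. The groups were far apart, with a difference of 0.72 ± 0.10 (adjusted p = 0.000447) and 0.67 to 0.77 with any library left out. After median-ratio scaling 0.22 of it was left, not called (adjusted p = 0.113). In the mock diaphragm Foxo4 ranged from 78.4 through 86.7 to 94.4 TPM and from 78.4 through 88.7 to 107 TPM (0.08 ± 0.08, adjusted p = 0.445; -0.15 after scaling), and in SOL from 91.4 to 97.0 and from 80.4 to 109 TPM (0.06 ± 0.09, adjusted p = 0.656; -0.03 after scaling). The effect in TA exceeded that in the diaphragm by 0.64 ± 0.10 (adjusted p = 0.000172) and that in SOL by 0.66 ± 0.12 (adjusted p = 0.000332), differences that fell to 0.37 (adjusted p = 0.0985) and 0.24 (adjusted p = 0.336) after scaling.

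Eif4ebp1, which encodes the repressor 4E-BP1, was called higher in all 3 muscles with TPM as deposited. The 5 non-cachectic TA libraries held 27.1, 28.7, 30.4, 31.6 and 37.0 TPM and the cachectic ones 110.3, 120.3, 157, 177 and 741 TPM. All cachectic libraries were above all non-cachectic ones, by 2.62 ± 0.41 (adjusted p = 0.000954), by 2.13 without library 8, the one of 741 TPM, and by 2.12 after median-ratio scaling (adjusted p = 0.00101). In SOL the levels were 76.8, 82.5, 87.0, 91.7 and 105 TPM against 110.2, 117, 157, 217 and 339 TPM, without overlap (0.95 ± 0.26, adjusted p = 0.0215; 0.86 after scaling, adjusted p = 0.0327), and the call ended without non-cachectic library 62 (0.90, adjusted p = 0.0546). In the mock diaphragm it ranged from 67.8 through 84.0 to 108 TPM and from 85.2 through 172 to 460 TPM, with 9 of 10 cachectic libraries above every non-cachectic one (1.09 ± 0.30, adjusted p = 0.00534). That call ended after scaling (0.86, adjusted p = 0.0717) and in the high-state libraries alone (1.27, adjusted p = 0.0895), and held with library state as a term (1.36, adjusted p = 0.00378).

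**Figure D3:**
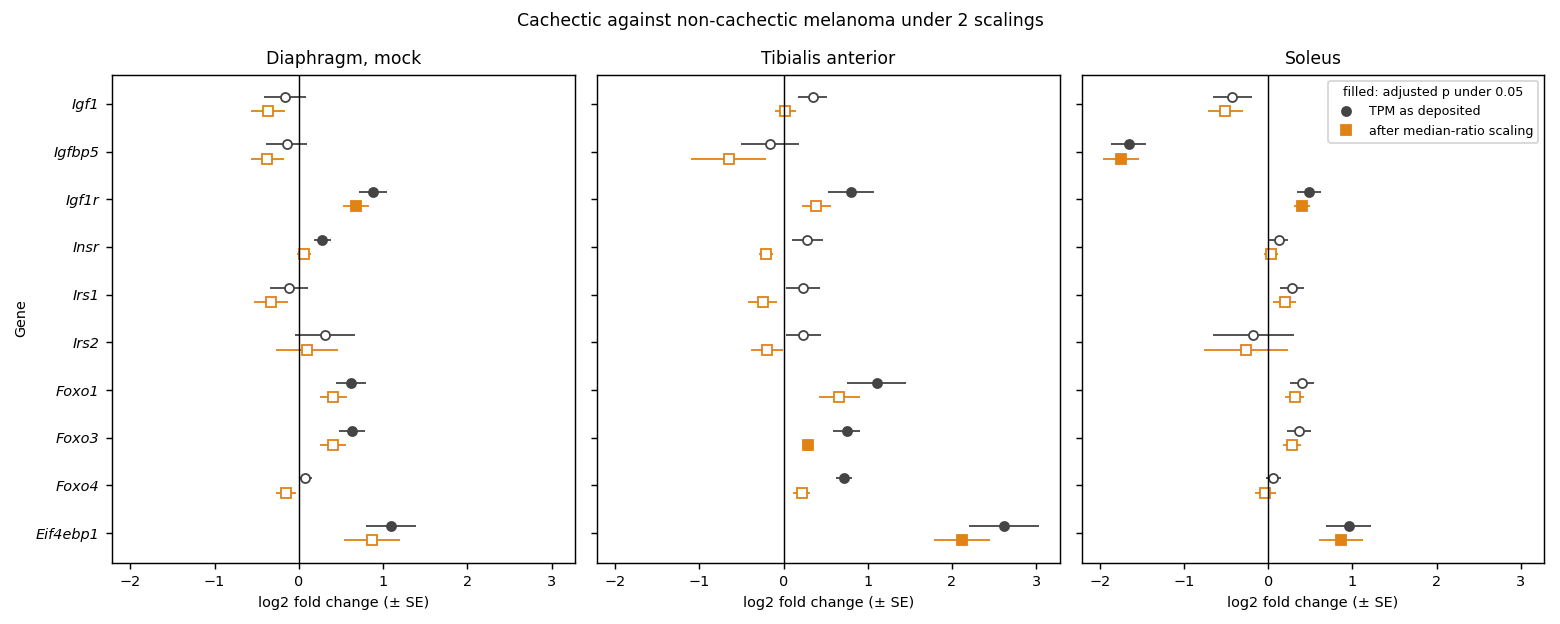
Log2 fold change of cachectic against non-cachectic libraries with its SE, from TPM as deposited (circles) and after median-ratio scaling (squares), in the mock diaphragm, TA and SOL; filled symbols have an adjusted p below 0.05. Scaling moves the TA values furthest, and leaves Foxo3 and Eif4ebp1 called in TA, Igf1r in the diaphragm, and Igf1r, Eif4ebp1 and Igfbp5 in SOL.

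Tests of the difference between muscles called few of the 10 genes. Between diaphragm and TA 2 of 10 were called, Foxo4 and Eif4ebp1 (-1.52 ± 0.44, adjusted p = 0.0372), against 5.04% of all genes. Between diaphragm and SOL 1 of 10 was called, Igfbp5, against 2.52%. Between TA and SOL 3 of 10 were called, Foxo4, Igfbp5 and Eif4ebp1 (1.66 ± 0.50, adjusted p = 0.0206), against 20.4%, and 5, against 41.2% of all genes, with the number in the column name as a block, which added Foxo1 (0.70, adjusted p = 0.0431) and Igf1 (0.77, adjusted p = 0.0371). Igf1 was also called without cachectic SOL library 9 (0.95, adjusted p = 0.0431). All genes called in the last comparison were split 19.1% higher and 1.26% lower, and 3.77% and 7.72% after median-ratio scaling. The Eif4ebp1 differences ended after scaling (-1.27, adjusted p = 0.0548, and 1.26, adjusted p = 0.0684) and without cachectic TA library 8 (-1.04, adjusted p = 0.128, and 1.18, adjusted p = 0.0536). The difference between diaphragm and TA also ended without cachectic diaphragm library 6 or 10, non-cachectic diaphragm library 63 or 65, or non-cachectic TA library 61, 62, 63 or 65 (-1.53 to -1.41). Igf1r and Foxo3, called in some muscles and not in others or with different sizes, did not differ between muscles in any of the 3 tests (adjusted p from 0.282 to 0.897).

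A few libraries carried the extremes of many of these genes at once. Cachectic TA library 8 was the highest of its group in 8 of the 10 genes, in all but Irs1 and Igfbp5, and the lowest in Igfbp5. Its median-ratio factor was 1.76, against 0.998 to 1.17 in the rest of the group. Cachectic mock diaphragm library 20 was highest in 7 genes and lowest in Irs1 and Igfbp5, with a factor of 1.01, and cachectic rFibcd1 library 3 was highest in the same 7 genes (Foxo1, Foxo3, Foxo4, Igf1r, Insr, Irs2 and Eif4ebp1), with a factor of 1.04. Cachectic rFibcd1 library 11, of the low state and with a factor of 0.689, was lowest in 7 genes.

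The response to rFibcd1 was tested in the diaphragm. In cachectic mice 0 of the 10 genes were called by limma, against 0.0447% of all genes, and 0 had an unadjusted p below 0.05. Dunn tests on ranks called 0 of the 10, against 0% of all genes. The values were -0.31 ± 0.16 for Igf1r (11.6 ± 5.28 TPM in mock and 8.86 ± 2.82 TPM in rFibcd1, n = 10 each, adjusted p = 0.504), -0.30 ± 0.15 for Foxo3 (25.8 ± 10.6 and 20.6 ± 6.65 TPM, adjusted p = 0.482) and -0.21 ± 0.29 for Eif4ebp1 (199 ± 106 and 204 ± 178 TPM, adjusted p = 0.831). The groups overlapped in every gene. Igf1 (0.30 ± 0.25), Irs1 (0.28 ± 0.22), Irs2 (-0.09 ± 0.34), Foxo1 (-0.18 ± 0.17), Igfbp5 (-0.13 ± 0.24), Foxo4 (-0.07 ± 0.08) and Insr (-0.05 ± 0.10) were likewise not called.

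In non-cachectic mice 0 of 10 were called by limma, against 0.417% of all genes. Dunn tests called 0, against 0.104% of all genes. Of the 10 genes 1 had an unadjusted p below 0.05 by limma. This was Irs1, with 10.5 through 14.1 to 19.5 TPM in mock and 17.2 through 24.9 to 41.7 TPM in rFibcd1 mice (0.79 ± 0.23, p = 0.00146 and adjusted p = 0.142 by limma), where the median of all genes was 0.15. The interaction of tumor and rFibcd1 was called for 0 of 10 genes, against 0.0223% of all genes, and 1 of them, Foxo1, had an unadjusted p below 0.05 (-0.51 ± 0.25, limma p = 0.0478, adjusted p = 0.565). A missed threshold in these tests does not show that levels were equal.

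**Figure D4:**
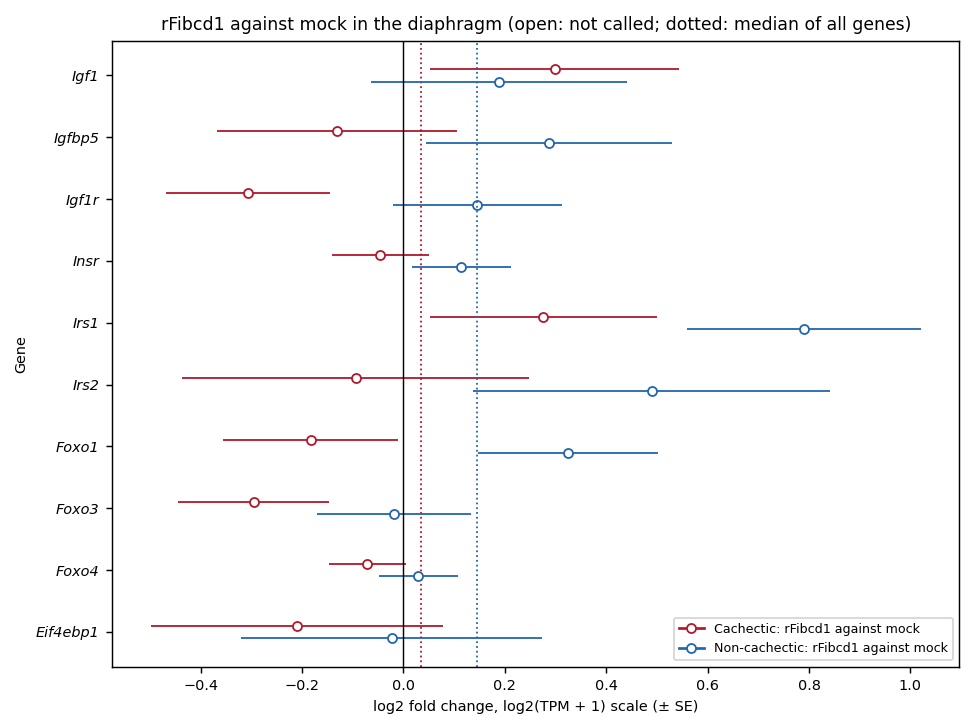
Log2 fold change of rFibcd1 against mock diaphragm with its SE in cachectic and non-cachectic mice; open symbols are genes that were not called, and dotted lines the median of all genes tested. No gene is called, and Irs1 in non-cachectic mice lies farthest from 0, at 0.79.

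Among rFibcd1-treated mice the tumors differed in 1 of the 10 genes, against 9.11% of all genes. Eif4ebp1 ranged from 70.6 through 77.8 to 108 TPM in non-cachectic and from 65.3 through 137 to 604 TPM in cachectic mice (0.90 ± 0.29, adjusted p = 0.0413), with 6 of 10 cachectic libraries above all non-cachectic ones. The call ended with 12 of the 20 libraries left out in turn, cachectic 3, 4, 5, 11 and 14 and non-cachectic 46, 47, 48, 49, 50, 58 and 59 (0.69 to 0.91), after median-ratio scaling (0.83, adjusted p = 0.0981) and by Dunn tests on ranks (adjusted p = 0.203). It also ended without a filter on low values and in the high-state libraries alone. The Dunn tests and the high-state libraries called 0% of all genes. Igf1r (0.42 ± 0.16, adjusted p = 0.087), Foxo3 (0.35 ± 0.15, adjusted p = 0.129), Foxo1 (0.11 ± 0.17, adjusted p = 0.731) and Insr (0.12 ± 0.10, adjusted p = 0.453), called among mock mice, were not called here, and the interaction given above did not separate the effects. Igf1r and Foxo3 were called without cachectic library 11 (0.49, adjusted p = 0.0416, and 0.43, adjusted p = 0.0476). Irs1 (-0.63 ± 0.22, adjusted p = 0.0671) and Igfbp5 (-0.56 ± 0.24, adjusted p = 0.127) were called lower after median-ratio scaling (-0.71, adjusted p = 0.0189, and -0.64, adjusted p = 0.0281), and Irs1 also without cachectic library 17 (-0.76, adjusted p = 0.023) or 18 (-0.72, adjusted p = 0.0292).

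The other genes of the pathway were read from lists after the 10 had been taken out of them. For each count below, the share of all genes called higher was 30.9% in the mock diaphragm, 56.4% in TA and 17.5% in SOL, and 7.39%, 18.4% and 15.2% after median-ratio scaling. Of 29 FoxO target genes, 13 were called higher and 1 lower in the cachectic mock diaphragm (median 0.28, against 0.20 for all genes), 20 and 1 in TA (median 0.64, against 0.41) and 7 and 3 in SOL (median 0.03, against 0.09). After median-ratio scaling these counts were 4 and 2, 12 and 3, and 5 and 3. Fbxo32 and Trim63, the muscle ubiquitin ligases atrogin-1 and MuRF1, were higher in TA by 2.32 ± 0.42 (365 against 60.5 TPM) and 2.00 ± 0.38 (596 against 121 TPM). These TA calls held after scaling. Trim63 was also called higher in the mock diaphragm (0.96 ± 0.38, adjusted p = 0.0474) and SOL (0.93 ± 0.31, adjusted p = 0.0493), where scaling ended both calls (adjusted p = 0.217 and 0.0813), and Fbxo32 was called in neither (0.55 ± 0.33 and -0.27 ± 0.26). Cdkn1a, a cell cycle inhibitor, was higher in the mock diaphragm (1.26 ± 0.29), TA (1.83 ± 0.51) and SOL (1.55), and so was Fbxo31, an F-box protein (1.12 ± 0.26, 1.85 ± 0.33 and 1.07 ± 0.18), and all 6 differences stayed called after scaling. Sod2, the mitochondrial superoxide dismutase, was lower in all 3 muscles (-0.30 ± 0.11, -0.55 ± 0.12 and -0.44 ± 0.15), in SOL not after scaling (-0.54, adjusted p = 0.0535).

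Of the mTORC1 and translation genes, 11 of 24 were called higher and 0 lower in the mock diaphragm, 17 of 23 and 0 in TA and 8 of 24 and 0 in SOL, and 3 and 0, 4 and 3, and 8 and 1 after scaling. Ddit4, which encodes the mTORC1 inhibitor REDD1, was higher in each muscle, with 90.5 against 17.1 TPM in the mock diaphragm (2.17 ± 0.33), 95.5 against 13.5 TPM in TA (2.69 ± 0.40) and a difference of 1.94 in SOL. Sesn1, another inhibitor of mTORC1, was higher by 0.86 ± 0.22, 1.09 ± 0.24 and 0.83, and lost its call in the diaphragm after scaling (0.63, adjusted p = 0.0572). Of 18 PI3K and AKT genes, 6 were called higher and 1 lower in the mock diaphragm, 9 and 1 in TA and 3 and 2 in SOL, with 2 and 1, 4 and 4, and 2 and 4 after scaling, and the counts as deposited lay near the shares of all genes. Akt1 (0.57 ± 0.11 in the mock diaphragm, 1.47 ± 0.35 in TA) and Pik3r1, the p85 regulatory subunit (0.57 ± 0.15 and 1.50 ± 0.33), were higher, and Inppl1, which encodes the lipid phosphatase SHIP2, was lower (-0.30 ± 0.11 and -0.39 ± 0.10). These 3 genes kept their calls after scaling.

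Upstream of them, Grb14, an adaptor that inhibits the insulin receptor, was lower in each muscle: 8.43 against 18.6 TPM in the mock diaphragm (-1.11 ± 0.21), 3.05 against 9.88 TPM in TA (-1.46 ± 0.21) and 4.24 against 11.7 TPM in SOL (-1.31 ± 0.22). Igfbp3, another IGF-binding protein, was higher in each: 81.8 against 21.3 TPM (1.69 ± 0.29), 38.9 against 4.51 TPM (2.05 ± 0.55) and 37.9 against 10.9 TPM (1.54 ± 0.29). Both kept their calls after scaling. Beside Igfbp5, Igfbp6 was also lower in SOL (38.1 against 65.6 TPM, -0.80 ± 0.14). Of the remaining adaptors 3 of 8 were called higher and 1 lower in the mock diaphragm, 4 and 1 of 6 in TA and 0 and 1 of 7 in SOL, with 0 and 1, 0 and 2, and 0 and 3 after scaling. Of the ligands and binding proteins the counts were 3 and 0 of 7, 4 and 0 of 5, and 3 and 1 of 6, and 1 and 1, 3 and 0, and 3 and 1 after scaling. The fourth FoxO gene, Foxo6, was named after its values were seen: in contrast to Foxo1 and Foxo3 it was lower, with 5.32 ± 1.34 and 3.29 ± 1.11 TPM in the mock diaphragm (-0.59 ± 0.18, adjusted p = 0.0108), 4.13 ± 0.745 and 1.37 ± 0.870 TPM in TA (-1.19 ± 0.23, adjusted p = 0.00264) and 6.44 ± 1.22 and 2.07 ± 0.587 TPM in SOL (-1.28 ± 0.15, adjusted p = 0.000246), and it was called lower after scaling too (adjusted p = 0.00293, 0.00126 and 0.000283).

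Macrophage markers were called higher in cachectic mice in 3 of 6 cases in the mock diaphragm, 5 of 5 tested in TA and 1 of 6 in SOL, against 30.9%, 56.4% and 17.5% of all genes. Their sum overlapped between the tumors in the mock diaphragm, TA and SOL and ranged from 73.4 to 169 TPM in non-cachectic and 120.3 to 431 TPM in cachectic mock diaphragm, 9.79 to 22.4 and 18.2 to 117 TPM in TA, and 43.0 to 55.8 and 32.5 to 155 TPM in SOL, with no marker at 0 throughout a group. In TA, 2 of 5 fibroblast markers were called higher, against 56.4% of all genes, with sums of 146 to 278 TPM (median 211) and 223 to 451 TPM (median 339). The 3 satellite cell markers summed there to 2.06 to 3.54 TPM in non-cachectic and 5.34 to 6.94 TPM in cachectic libraries, without overlap, and the 1 that passed the filter was called higher. In the mock diaphragm adipocyte markers summed to 27.5 to 331 TPM (median 75.1) in non-cachectic and 53.7 to 753 TPM (median 213) in cachectic libraries. Liver markers summed there to 0.365 to 7460 TPM (median 17.2) in non-cachectic and 3.77 to 2010 TPM (median 28.1) in cachectic libraries. Both sums overlapped between the tumors. The part of these cell types in the results was not tested. Finally, the 10 genes were compared with 8595 genes by the Pearson correlation of the 8 group means of log2(TPM + 1), as a description. Foxo3 and Igf1r were near each other (r = 0.991), Foxo3 being nearest to Fgf2 (0.996) and Igf1r to Dazap1 (0.998). Foxo4 was nearest to Pla2g6 (0.995), Igf1 to Suv420h2 (0.997), Insr to Zfp553 (0.993), Irs2 to Smurf1 (0.994), Eif4ebp1 to Clcc1 (0.989) and Igfbp5 to Pcca (0.991). Irs1 had no close match, its nearest being 8030462N17Rik (0.921). The 8 means share libraries and the muscle differences, and high values are common among so few points.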

How the data were processed

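RNA-seq was performed on diaphragm, TA and SOL of xenografted mice. The authors mapped reads to GRCm38/mm10 with CLC Genomics Workbench and deposited one table of TPM per gene symbol; the gene annotation is not given in the sources used here, and the library kit and instrument differ between the labels and the methods. The deposited TPM sum to the same total in each of the 59 libraries, so the sequencing depth is unknown and no counting interval is given. Column names carry a group and a number that the labels do not tie to a replicate; libraries are named by that number. Where nothing ties libraries to separate cohorts, p-values measure only the spread between these samples.

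Differences were fitted with limma 3.58.1 (R 4.3.3, with a mean-variance trend) on log2(TPM + 1), a scale that understates changes of low genes, after a filter of at least 1 TPM in as many libraries as the smallest group. Separate fits were made for the diaphragm, TA and SOL, and one for the 39 libraries without rFibcd1 to compare muscles. The Benjamini-Hochberg adjustment ran over all genes tested, and genes with an adjusted p below 0.05 were called. Descriptive values were computed with pandas 2.3.3 and numpy 2.4.6. The code was tested on simulated data. Alternatives were a pseudocount of 0.1, no filter, median-ratio scaling, Dunn tests on ranks, library state (Pcna-ps2 above 2 TPM) as a term or high-state libraries alone, the column number as a replicate block, and each library left out in turn; scaling together with the state term was added after seeing the data.

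Same-numbered libraries of different muscles deviated together from their group means. The correlation was 0.133 to 0.502 over 10 pairs of diaphragm and TA and 0.196 to 0.493 over 10 pairs of TA and SOL, all above 0.1, and 0.0101 to 0.450 for diaphragm and SOL, where 8 of 10 pairs exceeded 0.1. The numbers were read as pairing libraries from these correlations alone, and the correlation was not above 0.1 in every pair of diaphragm and SOL.

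The 10 genes and all gene lists were chosen with earlier results of these data known. Of the other pathway genes, up to 3 called genes with the highest and up to 3 with the lowest fold change per list and comparison were eligible to be named, at a mean of at least 5 TPM. The gene nearest to Foxo1 in its pattern over the group means is not reported here.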

Additional observations from a re-analysis of the deposited data

Results flagged for a closer look

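Dixon's test was applied to TPM, and its rate of about 1 in 20 holds for independent values with a normal spread. The genes share libraries, and several flags fall in the same one, so no excess over that rate is read from the count. Of 80 combinations of gene and group, 15 had a highest library that stood apart from the rest of its group by this test. In the cachectic mock diaphragm these were Foxo1 at 23.5 TPM (next 15.6), Foxo3 at 54.4 TPM (next 28.1), Igf1 at 11.8 TPM (next 7.42), Irs2 at 149 TPM (next 25.1) and Eif4ebp1 at 460 TPM (next 252). In the cachectic rFibcd1 diaphragm they were Foxo1 at 21.0 TPM (next 13.2), Foxo4 at 134 TPM (next 98.1) and Irs2 at 42.6 TPM (next 25.2). In cachectic TA they were Foxo1 at 33.0 TPM (next 9.75), Igf1r at 14.1 TPM (next 6.15), Insr at 50.5 TPM (next 26.9) and Eif4ebp1 at 741 TPM (next 177), all in library 8. In non-cachectic diaphragm they were Igf1 at 17.0 TPM (next 7.79) and Irs2 at 32.2 TPM (next 15.9) among mock mice and Igf1 at 13.4 TPM (next 9.43) among rFibcd1 mice.

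The tumor effect differed between muscles in 6 tests. Diaphragm minus TA was -0.64 for Foxo4 and -1.52 for Eif4ebp1, diaphragm minus SOL was 1.51 for Igfbp5, and TA minus SOL was 0.66 for Foxo4, 1.66 for Eif4ebp1 and 1.50 for Igfbp5. After median-ratio scaling only the Igfbp5 difference between diaphragm and SOL was still called (1.36).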

How the results depend on the processing

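Of the 10 genes, 5 were called in the mock diaphragm, and 1 after median-ratio scaling (15.8% of all genes), 3 with library state as a term (15.3%), 1 in high-state libraries alone (5.69%) and 2 with scaling and the state term together (11.6%). Among rFibcd1 mice the count of 1 became 0 without a filter (4.08% of all genes), 2 after scaling (8.97%), 0 by Dunn tests (0%), 3 with the state term (10.1%), 0 in high-state libraries (0%) and 3 with scaling and state (10.4%). TA went from 5 to 2 after scaling (40.3%). The effect of diaphragm minus TA went from 2 to 1 without a filter (2.28%) and 0 after scaling (5.15%), and TA minus SOL from 3 to 0 after scaling (11.5%). Diaphragm against SOL went from 1 to 2 with a pseudocount of 0.1 (40%) and 3 after scaling (47.2%), and TA against SOL from 9 to 5 after scaling (53.3%). With the replicate block TA minus SOL went from 3 to 5 (41.2%) and diaphragm against SOL from 1 to 5 (49.9%). Irs1 between diaphragm and TA apart, the block changed no other call. The cause of these moves was not tested.

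With each library left out, the counts ranged from 4 to 5 in the mock diaphragm, 0 to 2 among rFibcd1 mice, 4 to 6 in TA, 1 (without non-cachectic library 62) to 5 (without cachectic library 6) in SOL, 1 to 2 for diaphragm minus TA, 1 to 1 for diaphragm minus SOL, 2 to 4 for TA minus SOL, 7 to 8 for diaphragm against TA, 1 to 3 for diaphragm against SOL and 7 to 8 for TA against SOL, and were 0 for both rFibcd1 responses and the interaction. The shares of all genes called in these fits with a library left out are not given here. The ranges are therefore a description, and nothing particular to the pathway genes is read from them. Without a filter Igf1r lost its call in TA (adjusted p = 0.0571) and SOL (0.0506) and Foxo1 in TA against SOL (0.0735), and by Dunn tests Igf1r lost its call in SOL (0.0641).

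None of the values that changed sign was called as deposited, except Insr in TA against SOL. After scaling these were Foxo4 in the mock diaphragm (-0.15) and SOL (-0.035), Insr (-0.20), Irs1 (-0.25) and Irs2 (-0.20) in TA, Foxo4 (-0.15), Igf1r (-0.0071) and Insr (-0.059) for rFibcd1 in non-cachectic mice, Foxo4 in the interaction (0.054), Foxo3 (0.11) and Insr (0.26) for diaphragm minus TA, Foxo4 (-0.13) and Eif4ebp1 (-0.011) for diaphragm minus SOL, Insr for TA minus SOL (-0.25), Insr for diaphragm against TA (-0.39), and Insr (0.14) and Irs1 (0.54) for TA against SOL. With the state term it was Eif4ebp1 for rFibcd1 in non-cachectic mice (0.10). In high-state libraries they were Foxo4 in the mock diaphragm (-0.0050), Foxo1 (-0.019) and Igf1 (0.18) among rFibcd1 mice, Igfbp5 for rFibcd1 in cachectic mice (0.19), Foxo4 (-0.070) and Eif4ebp1 (0.15) in non-cachectic mice and Foxo4 in the interaction (0.0032). With scaling and state they were Foxo4 (-0.075), Igf1 (-0.063), Insr (-0.043) and Eif4ebp1 (0.00052) for rFibcd1 in non-cachectic mice, and with the replicate block Igf1r (-0.022), Insr (0.031) and Irs2 (-0.070) for diaphragm minus TA.

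With libraries left out, signs changed within these ranges: Irs2 in the mock diaphragm (-0.027 to 0.46); Foxo4 (-0.094 to 0.0042) and Igf1 (-0.17 to 0.11) among rFibcd1 mice; Insr (-0.095 to 0.038), Irs2 (-0.24 to 0.24) and Igfbp5 (-0.21 to 0.088) for rFibcd1 in cachectic mice; Foxo3 (-0.044 to 0.034) and Eif4ebp1 (-0.068 to 0.024) in non-cachectic mice; Igf1 in the interaction (-0.034 to 0.27); Igfbp5 in TA (-0.45 to 0.14); Irs2 in SOL (-0.60 to 0.13). For diaphragm minus TA these were Foxo3 (-0.25 to 0.029), Igf1r (-0.052 to 0.37), Insr (-0.087 to 0.19), Irs2 (-0.26 to 0.22) and Igfbp5 (-0.28 to 0.31), for diaphragm minus SOL Foxo4 (-0.054 to 0.054) and Eif4ebp1 (-0.021 to 0.38), and for TA minus SOL Insr (-0.039 to 0.24) and Irs1 (-0.20 to 0.11). For diaphragm against SOL they were Foxo3 (-0.012 to 0.12) and Igf1r (-0.036 to 0.061), and for TA against SOL Irs1 (-0.13 to 0.011).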
